A study of Mus musculus with 15 samples.

Results

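The loops described here are the T cell receptor (TCR) alpha CDR3 peptides that end in ANTGKLT, an end attributed to the mouse joining segment TRAJ52. The rule took every peptide with this end from 15 libraries of mouse CD8+ T cells, and 2255 of 92219 distinct CDR3s met it. Tumour libraries listed 96 of them, MP libraries 448 and Naive libraries 1945. The segment was singled out because it held more of the reads of MP cells than of Naive cells in the same libraries. The shares of MP against Naive cells, the calls in that comparison and the level of the most abundant member are therefore a description, and nothing rests on them.

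The Tumour group comprised 5 libraries of CD8b+ CD4neg T cells, sorted with no gate on CD44 or CD122, from prostate tumours of C57BL/6 TCRbtg TRAMP+/- males aged 27 weeks. The MP group (memory phenotype, CD8b+ CD4neg CD44hi CD122+) and the Naive group (CD8b+ CD4neg CD44lo CD122neg) held 5 libraries each, from pooled spleen and lymph nodes of C57BL/6 TCRbtg males aged 9 weeks. All mice carried TCRbtg, a fixed TCR beta transgene, and their receptors therefore vary through the alpha chain. TRAMP mice express SV40 T antigen in prostate epithelium under a prostate-directed promoter and develop prostate cancer. Tissue, age, TRAMP genotype and sort gate all differ between the Tumour group and both other groups, and cannot be told apart as sources of a difference. The values are counts of sequencing reads per CDR3 peptide. In such libraries, fewer cells with a receptor and less receptor RNA per cell cannot be told apart.

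A TCR alpha chain is made by joining 1 variable (V) segment to 1 joining (J) segment. The facing ends are trimmed by nucleases and random nucleotides can be added, which makes the middle of the CDR3 loop the most variable stretch of the chain. That middle usually lies over the peptide held by the MHC molecule. The first residues of a loop (AA, AL, AM or AV in most loops here) come from the V segment and the last ones from the J segment. The more residues of a loop match the whole J end, the less the J segment was trimmed. A whole TRAJ52 end reads NTGANTGKLT. In the RefSeq gene table Traj52 lies on chromosome 14 between Traj53 and Traj51. TRAJ27 also ends in NTGKLT, usually after a T. A loop that ends in ANTGKLT without a G before it could therefore come from a trimmed TRAJ27 as well as from a trimmed TRAJ52. Nucleotide sequences were not used here, so these cannot be told apart.

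The loops that carried the values below were as follows. The first 4 were among the most abundant members in MP cells, the next 3 were the most abundant in Naive cells, and the last 3 were the first or second member of a single tumour. They are amino acids, written without the conserved residues that flank the loop, as the lists give them. A hyphen marks where the shared end ANTGKLT begins, and the peptide itself runs through.
Lead in MP: AADTG-ANTGKLT
Next in MP: AASEA-ANTGKLT
MP, with 2 arginines: AMERR-ANTGKLT
MP, with 1 arginine: AVSGR-ANTGKLT
Naive, arginine form: AASRGTG-ANTGKLT
Naive, valine form: AASVGTG-ANTGKLT
Naive, lysine form: AASKGTG-ANTGKLT
Lead in Tumour 3: AVRNTG-ANTGKLT
Lead in Tumour 5: AVSHFT-ANTGKLT
Next in Tumour 5: AMPG-ANTGKLT
All 4 MP loops are 12 residues long and all 3 Naive loops are 14 residues long. The Naive loops differ from each other at a single position, and each keeps TGANTGKLT, the last 9 residues of the whole end. AADTG-ANTGKLT keeps the same 9 residues, whereas the other MP loops keep only the 7 residues ANTGKLT.

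Tumour libraries held 627205 to 943699 reads each, MP libraries 574484 to 881988 and Naive libraries 547665 to 702663, and the lowest listed count was 2 reads in every library. A floor of 3 reads corresponds to a share of 0.000383% in Tumour, 0.000430% in MP and 0.000498% in Naive libraries of mean depth. MP 1 and MP 5 listed 227 and 258 members, against 49 to 70 in the other MP libraries. They also listed more CDR3s of all kinds, 12401 and 13950 against 2216 to 3392. For iNKT cells, another cell type that a CD8 sort could hold, the invariant CDR3 was listed in no tumour. It had 0 to 5 reads in single MP libraries and 0 to 2 reads in single Naive libraries. The motif of MAIT cells took 0.00154 ± 0.00345% of Tumour, 0.00334 ± 0.00288% of MP and 0.0189 ± 0.00368% of Naive reads (SD, n = 5 each). The lists hold only TCR alpha CDR3s, so the sorted cell types could not be checked against other genes.

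Together the members held 0.711 ± 0.615% of reads in Tumour, 5.89 ± 1.48% in MP and 1.57 ± 0.217% in Naive libraries (SD, n = 5 each). The summed share was 0.0855%, 0.583%, 1.48%, 0.197% and 1.21% in Tumour libraries 1 to 5. It was 6.55%, 3.88%, 6.04%, 7.83% and 5.18% in MP libraries 1 to 5, and 1.54%, 1.28%, 1.50%, 1.67% and 1.87% in Naive libraries 1 to 5. Every MP library lay above every Naive library, while the highest tumours reached into or near the Naive range. One loop made up most of the MP total. AADTG-ANTGKLT had 0, 974, 70, 370 and 0 reads in Tumour libraries, 43251, 20027, 32331, 36014 and 25951 in MP libraries, and 104, 112, 154, 205 and 125 in Naive libraries. It was thus listed in 3 tumours and in all MP and Naive libraries, and it took 73.3 to 80.1% of the members' reads in each MP library.

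**Figure D1:**
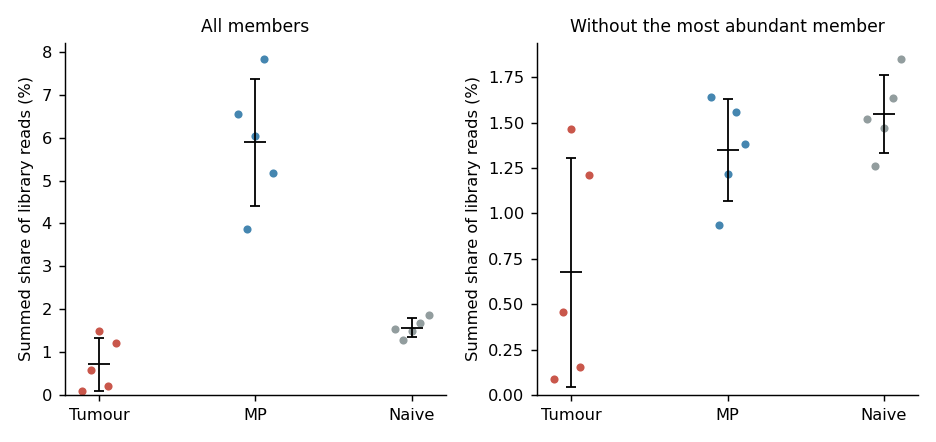
Summed share of library reads (%) of the loops ending in ANTGKLT in the 5 libraries of each group, with all members (left) and without the most abundant one (right); points are libraries, bars the mean and SD. With all members the MP libraries lie between 3.88 and 7.83%, and without the most abundant one they lie between 0.939 and 1.64%, overlapping the Naive libraries at 1.26 to 1.85%.

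Without AADTG-ANTGKLT, the MP and Naive groups overlapped. The other members held 0.675 ± 0.630% of reads in Tumour, 1.35 ± 0.282% in MP and 1.55 ± 0.216% in Naive libraries (SD, n = 5 each). MP libraries then spanned 0.939 to 1.64% and Naive libraries 1.26 to 1.85%. Counted by distinct loop rather than by read, the members made up 1.48 ± 0.698% of the CDR3s of Tumour, 2.01 ± 0.273% of MP and 2.64 ± 0.0965% of Naive libraries. All 5 MP libraries, at 1.77 to 2.39%, lay below the lowest Naive library, at 2.55%. The MP group thus had the highest share of reads and a lower share of distinct loops than the Naive group.

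The similar totals without the lead concealed different loops. In MP cells most of the remaining reads were on loops with a short J end, and in Naive cells on loops with a nearly whole one. The members were grouped by how much of NTGANTGKLT they kept. Loops that kept only ANTGKLT, with another residue than G before it, held 0.178 ± 0.381% of Tumour, 0.818 ± 0.167% of MP and 0.0629 ± 0.00990% of Naive reads. Single MP libraries ranged from 0.589 to 1.02% and Naive libraries from 0.0561 to 0.0802%, so the groups did not overlap. This class made up 60.9 ± 4.04% of the members' reads without the lead in MP, against 4.19 ± 1.26% in Naive cells. Loops that kept TGANTGKLT but not the N before it showed the opposite order, with 0.124 ± 0.135% of Tumour, 0.174 ± 0.0504% of MP and 1.02 ± 0.161% of Naive reads. MP libraries spanned 0.106 to 0.233% and Naive libraries 0.800 to 1.23%. The classes that kept GANTGKLT or the whole NTGANTGKLT overlapped between MP and Naive libraries. They held 0.239 ± 0.120% and 0.117 ± 0.0861% of MP reads, and 0.246 ± 0.0334% and 0.216 ± 0.0359% of Naive reads.

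**Figure D2:**
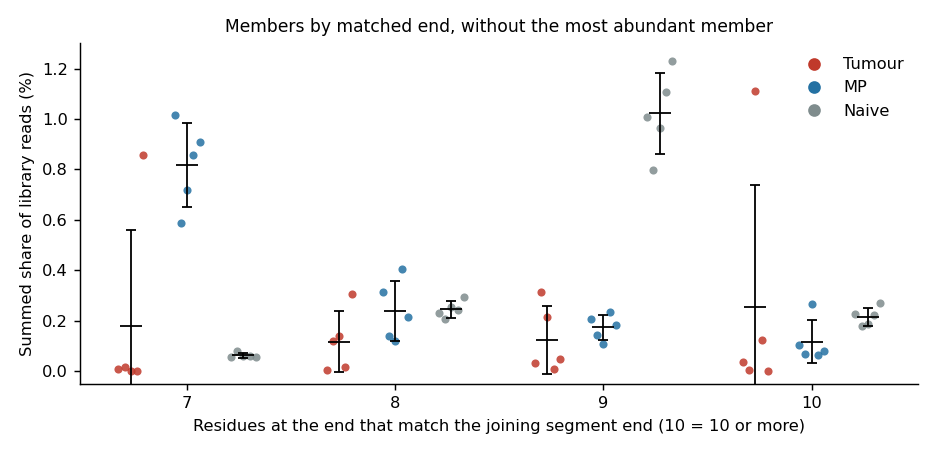
Summed share of library reads (%) by the number of residues at the end of the loop that match the whole TRAJ52 end, without the most abundant member, in Tumour, MP and Naive libraries; points are libraries, bars the mean and SD. At 7 residues all MP libraries lie above all Naive libraries, at 9 residues all lie below them, and at 7 and 10 residues 1 tumour lies far above the other 4.

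A few loops accounted for most of the short-ended class in MP cells. AASEA-ANTGKLT, AMERR-ANTGKLT and AVSGR-ANTGKLT together held 0.667 ± 0.102% of MP reads, against 0.000370 ± 0.000368% of Naive reads, which was 81.5% of the MP mean of the class. The other 259 loops of the class still held 0.152 ± 0.0837% of MP reads, with libraries between 0.0805 and 0.260%, and 0.0625 ± 0.0102% of Naive reads, with libraries between 0.0552 and 0.0802%. The lowest MP library was thus level with the highest Naive library.

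AASEA-ANTGKLT had 2999, 1302, 2548, 1445 and 1675 reads in MP libraries and was listed in no Naive library. Its mean MP share of 0.282 ± 0.0769% was at least 566-fold above the floor in Naive libraries. AMERR-ANTGKLT, with 2251, 1403, 1224, 1340 and 2111 reads in MP libraries, was likewise listed in no Naive library and was at least 476-fold higher in MP. Both were present in every MP library at similar levels. AVSGR-ANTGKLT had 1430, 742, 510, 1491 and 912 reads in MP libraries and 6, 0, 3, 0 and 3 in Naive libraries, a ratio of mean shares of 401. Of these 3 loops, tumours listed only AASEA-ANTGKLT, with 2 reads in Tumour 2.

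Loops of the form AASxA-ANTGKLT, where x is any residue, belonged almost wholly to MP cells. All 9 forms that any library listed were listed in MP libraries, where they held 0.343 ± 0.0810% of reads. Naive libraries listed 1 of the 9, AASDA-ANTGKLT, with 10 reads in Naive 1. Glutamate was the main residue at x, followed by aspartate in AASDA-ANTGKLT at 0.0241 ± 0.0183% of MP reads, lysine in AASKA-ANTGKLT at 0.0209 ± 0.0243% and alanine in AASAA-ANTGKLT at 0.0129 ± 0.0103%. These minor forms varied more between MP libraries, and AASDA-ANTGKLT and AASAA-ANTGKLT were not listed in MP 3. The related loop AASAS-ANTGKLT had 277, 61, 51, 182 and 195 reads in MP libraries and was listed in no Tumour or Naive library. The members named by form or position in this and the following paragraphs were partly chosen after their values were seen.

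Length separated loops with nearly the same residues. AASE-ANTGKLT, which is AASEA-ANTGKLT with 1 alanine fewer, was listed in no MP library and had 23, 14, 16, 20 and 34 reads in Naive libraries. AMEL-ANTGKLT, of 11 residues and with the same first 3 residues as AMERR-ANTGKLT, was also listed in no MP library and had 49, 22, 14, 24 and 18 reads in Naive libraries. All 9 short-ended loops called higher in MP cells had 12 residues, and the 3 called lower, these 2 and ALS-ANTGKLT, had 10 or 11. Each of these called loops passed the read filter, given below, only through the group in which it was higher, so its direction was fixed in advance. A short-ended loop of 12 residues, AASAW-ANTGKLT, was nevertheless listed in MP 1 and MP 5 only, with 28 reads in each, and in every Naive library, with 65, 62, 58, 39 and 51 reads. It was not called in MP against Naive cells with all libraries. Without MP 1 and MP 5 no remaining MP library listed it, so the lower call made then had its direction fixed in advance.

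In Naive cells the leading members were a set of 14-residue loops of the form AASxGTG-ANTGKLT. Of the 18 loops of this form, tumours listed 2, at 0.00208 ± 0.00465% of reads, and MP libraries 5, at 0.00110 ± 0.00233%. Naive libraries listed all 18, at 0.399 ± 0.0863% of reads, with libraries between 0.265 and 0.481%. AASRGTG-ANTGKLT had 2 reads in MP 1 and none in the other MP libraries, against 847, 360, 562, 752 and 836 reads in Naive libraries. AASVGTG-ANTGKLT had 7 reads in MP 5 and none in the other MP libraries, against 736, 367, 595, 682 and 949 in Naive libraries. AASKGTG-ANTGKLT was listed in no MP library and had 315, 241, 346, 345 and 379 reads in Naive libraries, which made it at least 126-fold lower in MP. Each of the 3 took similar shares in all 5 Naive libraries.

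The residue at x in AASxGTG-ANTGKLT varied widely in use. Arginine and valine each gave 0.110% of Naive reads, lysine 0.0542 ± 0.00901%, alanine in AASAGTG-ANTGKLT 0.0448 ± 0.0101% and leucine in AASLGTG-ANTGKLT 0.0226 ± 0.00659%. Histidine, threonine and serine were the rarest at 0.00120%, 0.000167% and 0.000146%, the last 2 below the floor. The shorter form AASxTG-ANTGKLT comprised 19 loops and held 0.000809 ± 0.00146% of MP reads, against 0.158 ± 0.0247% of Naive reads. In Naive libraries it was led by AASGTG-ANTGKLT at 0.0331 ± 0.00295%, AASVTG-ANTGKLT at 0.0262 ± 0.00519%, AASYTG-ANTGKLT at 0.0242 ± 0.00599% and AASRTG-ANTGKLT at 0.0239 ± 0.00400%. In MP libraries AASYTG-ANTGKLT and AASRTG-ANTGKLT were not listed, nor was the 11-residue loop ASTG-ANTGKLT, which had 124, 150, 120, 87 and 115 reads in Naive libraries.

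The most abundant member of MP cells stood apart from its own near relatives. Of the 15 loops of the form AAxTG-ANTGKLT, the aspartate form AADTG-ANTGKLT held 4.55 ± 1.26% of MP reads, and the alanine form AAATG-ANTGKLT was next at 0.0214 ± 0.0266%. The glutamate form AAETG-ANTGKLT, which carries the same charge, had 14, 7, 17, 9 and 14 reads in MP libraries and 51, 23, 32, 51 and 64 in Naive libraries. The glycine form AAGTG-ANTGKLT was at 0.0134 ± 0.0195% in Tumour, 0.0125 ± 0.00406% in MP and 0.0123 ± 0.00563% in Naive libraries (SD, n = 5 each). AAGTG-ANTGKLT and AADTG-ANTGKLT were each listed in 13 of the 15 libraries, and no member was listed in more.

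Loops 1 substitution away from AADTG-ANTGKLT numbered 39 among the members. MP libraries listed 31 of them and Naive libraries 27. Of the 20 members listed in all 5 MP libraries, 12 were such neighbours, and 5 of these 12 were listed in no Naive library. The most abundant of these 5 was AADAG-ANTGKLT, with 97, 73, 65, 64 and 63 reads in MP libraries. EADTG-ANTGKLT, VADTG-ANTGKLT and AEDTG-ANTGKLT, which differ from the lead in the first 2 residues, had 2 to 14 reads in each MP library. The neighbours more than 100-fold below the lead held 1.32 to 2.35% as many reads as AADTG-ANTGKLT in MP libraries. Whether they are reading errors of the lead was not tested. Folding all such neighbours, of any loop, into the more abundant one removed 37.5 to 79.2% of the members listed in single tumours. It removed 14.0 to 59.2% of those of single MP libraries and 1.31 to 4.03% of those of single Naive libraries.

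Length of the loops also differed between MP and Naive cells, and not in the members alone. Loops with T before NTGKLT, the usual TRAJ27 form, held 1.78 ± 0.223% of MP and 2.79 ± 0.250% of Naive reads. Those of them with 12 residues held 0.838 ± 0.191% of MP and 0.620 ± 0.0525% of Naive reads. Lengths over all CDR3s were not compared. Without the lead, 12-residue loops held 38.7 ± 34.0% of the members' reads in Tumour, 72.5 ± 2.70% in MP and 7.41 ± 0.636% in Naive libraries. Loops of 14 residues held 0.958 ± 2.08% in Tumour, 11.5 ± 7.51% in MP and 46.6 ± 3.54% in Naive libraries. The mean length weighted by reads, without the lead, was 12.7 ± 0.623 residues in Tumour, 12.4 ± 0.111 in MP and 13.4 ± 0.0781 in Naive libraries. All MP libraries lay below all Naive libraries in this measure, while Tumour 1, at 13.7, lay above all Naive libraries. Counted by distinct loop, the mean length was 12.3 ± 0.282 in Tumour, 12.5 ± 0.270 in MP and 13.5 ± 0.0515 in Naive libraries with all members. The distinct loops of single MP libraries include 14 to 29 neighbours that folding assigned to the lead, all of 12 residues. Mean length after folding was not computed.

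**Figure D3:**
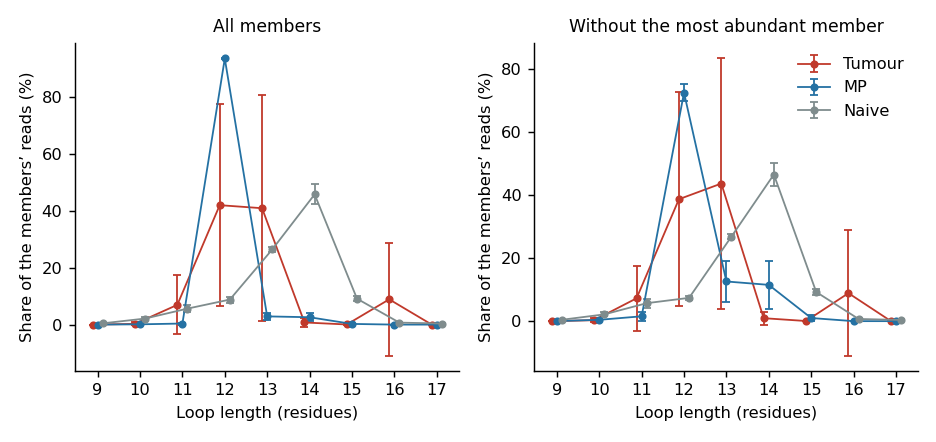
Share of the members' reads (%) by loop length in residues, as mean and SD over the 5 libraries of each group, with all members (left) and without the most abundant one (right). MP libraries peak at 12 residues in both panels, with 93.7% and 72.5% of the members' reads, and Naive libraries peak at 14 residues.

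The first 2 residues, which reflect the V segment, differed for 3 of the 4 main starts. Without the lead, loops that begin with AA held 53.5 ± 3.51% of the members' reads in MP and 75.5 ± 4.25% in Naive libraries. Loops that begin with AM held 20.7 ± 4.97% in MP and 3.02 ± 0.652% in Naive libraries. Most of the AM reads of MP cells were on AMERR-ANTGKLT. Loops that begin with AV held 14.2 ± 6.06% in MP and 5.05 ± 0.719% in Naive libraries. For these 3 starts the MP and Naive libraries did not overlap. Loops that begin with AL did overlap, with 7.16 ± 5.92% in MP and 7.73 ± 2.03% in Naive libraries. In tumours the shares ranged from 0.282 to 95.6% for AA and from 0 to 76.8% for AV, according to which loop led in the tumour.

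The net charge of the residues before ANTGKLT was close to 0 on average once the lead was set aside. Weighted by reads with all members, it was 0.0262 ± 0.358 in Tumour, -0.761 ± 0.0397 in MP and 0.0521 ± 0.0265 in Naive libraries. Without the lead, whose aspartate is its only charged residue there, it was 0.113 ± 0.291 in Tumour, 0.0286 ± 0.0804 in MP and 0.0684 ± 0.0273 in Naive libraries. The groups then overlapped. Loops with a net charge of -1 nevertheless held more of the remaining MP reads than of the Naive reads, 29.5 ± 4.69% against 12.7 ± 1.72% of the members' reads without the lead. The same held for a net charge of 1, at 33.0 ± 4.09% in MP against 20.5 ± 1.85% in Naive libraries. Uncharged loops or those of balanced charge held less in MP, 37.0 ± 3.92% against 65.7 ± 1.13%. A few loops carried most of both charged classes in MP. AASEA-ANTGKLT held 0.282% of MP reads, of 0.390% for a net charge of -1 without the lead. AMERR-ANTGKLT and AVSGR-ANTGKLT held 0.237% and 0.148%, of 0.445% for a net charge of 1. Counted by distinct loop without the lead, a net charge of 1 made up 13.9% of members in MP and 14.3% in Naive libraries. A net charge of -1 made up 26.4% and 18.7%, neighbours of the lead included.

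Calls per CDR3 were made across the whole table with edgeR's quasi-likelihood test, at a Benjamini-Hochberg adjusted p under 0.05, on CDR3s that reached 10 reads in 3 or more of the 10 libraries compared. In MP against Naive cells, 149 of the 2255 members passed this filter, and 22 of them were called higher in MP and 91 lower. Of all 5954 CDR3s tested, 12.6% were called higher and 48.1% lower. Among the members tested, the shares were 14.8% and 61.1%. The median log2 fold change was -6.83 over the 149 members and -3.35 over all CDR3s tested. MP libraries listed no reads of 77 tested members, and Naive libraries none of 10. Those members could pass the filter only through the other group, so their direction was fixed in advance. The matching share among all CDR3s tested was not counted. As the segment was chosen from this contrast, these counts are given as a description.

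By the length of the matched end, 9 of the 14 tested loops that kept only ANTGKLT were called higher in MP and 3 lower. Of 27 that kept GANTGKLT, 5 were higher and 14 lower. Of 82 that kept TGANTGKLT, 5 were higher and 59 lower, and of 26 with the whole end, 3 were higher and 15 lower. By loop length, 15 of the 31 tested 12-residue members were higher and 3 lower, against 4 and 41 of the 56 tested 14-residue members. Most called loops passed the filter only through the group in which they were higher. The counts by class and by length therefore largely restate which group admitted the loops, and are a description. The same counts over all CDR3s were not made. The largest log2 fold changes among called loops were 13.84 ± 0.90 (SE) for AASEA-ANTGKLT, 13.59 ± 0.88 for AMERR-ANTGKLT and 10.14 ± 1.20 for AASAS-ANTGKLT. They were -11.46 ± 0.93 for AASKGTG-ANTGKLT, -10.61 ± 1.25 for AASRGTG-ANTGKLT and -10.30 ± 0.98 for AASYTG-ANTGKLT. These values depend on the prior count where a group lists no reads.

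**Figure D4:**
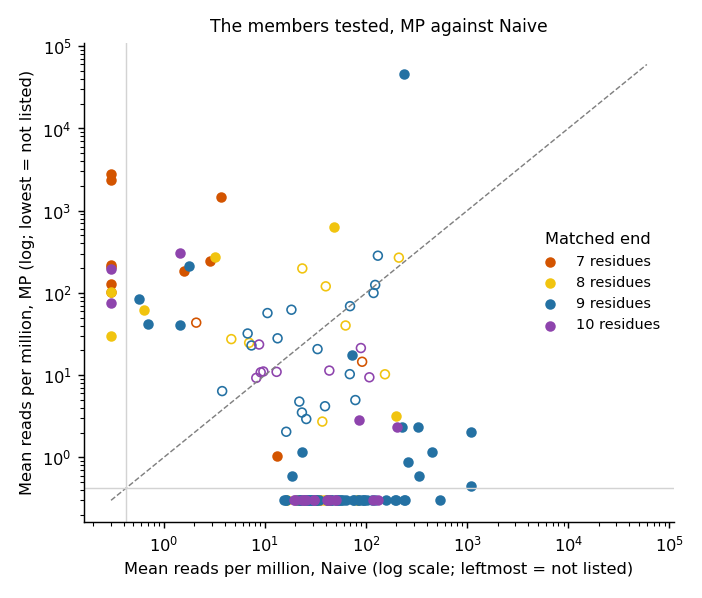
Mean reads per 1000000 in MP libraries (vertical, log scale) against Naive libraries (horizontal, log scale) for the 149 members tested in this comparison, coloured by the number of matched end residues, filled where called and open where not; members with no reads in a group are drawn at the edge of the axis. The 7-residue members called higher lie on the left, with few or no Naive reads, and most 9-residue members lie along the lower edge, where 77 members have no MP reads.

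Not every loop high in MP cells was called. AASAYG-ANTGKLT, one of the 10 most abundant members in MP cells, had 303, 108, 0, 412 and 84 reads in MP libraries and 101, 77, 135, 122 and 201 in Naive libraries, and the groups overlapped. AASAYTG-ANTGKLT overlapped too, with 403, 181, 0, 200 and 237 reads in MP and 68, 83, 53, 65 and 125 in Naive libraries, and was called higher without MP 3 only. In contrast AASAFG-ANTGKLT, with phenylalanine in place of tyrosine, had 751, 341, 253, 420 and 456 reads in MP and 21, 38, 32, 13 and 40 in Naive libraries, with no overlap. It was called higher with all libraries, but not with the library number as a block (log2 fold change 3.74, edgeR adjusted p = 0.0703). AASGFG-ANTGKLT, at 0.0270 ± 0.0283% of MP reads, was not listed in MP 3 and was highest in MP 4.

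Some calls lay close to the threshold. ALVPNTG-ANTGKLT had 83, 0, 865, 0 and 91 reads in MP libraries and 4 in Naive 4, and ALVLNTG-ANTGKLT had 160, 0, 499, 0 and 42 in MP libraries and none in Naive libraries. Both were called higher in MP with all libraries, but without any 1 of the Naive libraries their adjusted p in edgeR was 0.0515 to 0.0647 for ALVPNTG-ANTGKLT and 0.0501 to 0.0531 for ALVLNTG-ANTGKLT. AASDA-ANTGKLT lost its call in edgeR without Naive 2, Naive 3, Naive 4 or Naive 5, at an adjusted p of 0.0526 to 0.0535. Those Naive libraries did not list the loop, and its log2 fold change was then 5.98, against 6.27 with all libraries.

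Within each group the members recurred from library to library in the spleen and lymph node subsets, but seldom in tumours. MP libraries had 20 members in common to all 5, or 4.46% of those listed, which held 91.0 ± 1.52% of the members' reads. Of these 20, 12 were 1 substitution from the lead. Naive libraries had 130 in common, or 6.68%, which held 70.3 ± 1.74%. Among all CDR3s, 1.90% of those listed in MP libraries were common to all 5 and held 65.8 ± 1.39% of reads. In Naive libraries 6.00% were, with 78.7 ± 0.548% of reads. Both shares of the members' reads count AADTG-ANTGKLT, which alone took 76.8 ± 3.06% of the members' reads in MP libraries. The shares without it were not computed, so the groups are not ranked by them. Of the 96 members listed in tumours, 90 were listed in 1 tumour only, 4 in 2 tumours and 2 in 3 tumours, namely AADTG-ANTGKLT and AAGTG-ANTGKLT. None was listed in 4 or 5 tumours, where 1.35% and 1.14% of all CDR3s listed in tumours were. The CDR3s listed in all 5 tumours held 35.3 ± 9.24% of all tumour reads. Among all CDR3s listed in tumours, 85.9% were listed in 1 tumour only, against 93.8% of the members.

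The Morisita-Horn index rates the likeness of read shares in a pair of libraries, with 1 when they are identical and 0 when nothing is shared. It was taken over the members without the lead. It averaged 0.0298 ± 0.0904 between tumours, where the highest of the pairs was at 0.287, 0.872 ± 0.0767 between MP libraries and 0.941 ± 0.0389 between Naive libraries (SD over 10 pairs each). Over all CDR3s but the members it averaged 0.221 ± 0.167 between tumours, 0.912 ± 0.0254 between MP libraries and 0.973 ± 0.0109 between Naive libraries. The pairs share libraries, so the indices are a description. Between MP and Naive libraries it averaged 0.0165 ± 0.00699 over the members without the lead, and 0.0660 ± 0.00894 over all CDR3s but the members (25 pairs each). By presence, MP and Naive libraries shared 194 members, which were 43.3% of those of MP and 9.97% of those of Naive cells. For all CDR3s the shares were 42.5% and 14.6%.

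**Figure D5:**
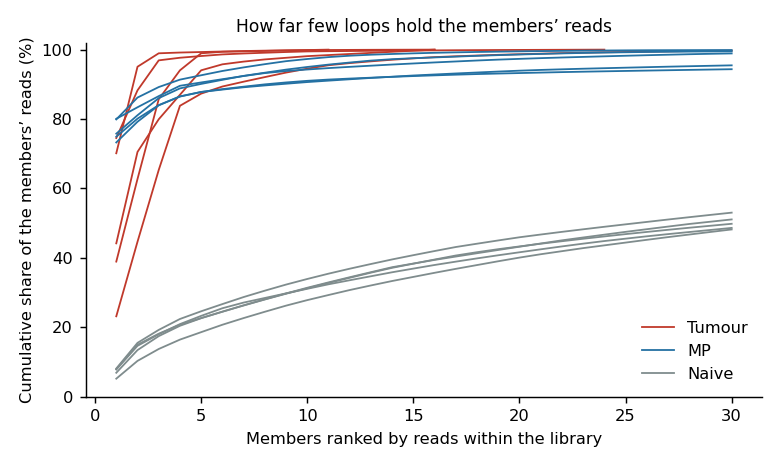
Cumulative share of the members' reads (%) against the number of members, ranked by reads within each library, for the 15 libraries coloured by group. The first 10 members, with AADTG-ANTGKLT counted, hold on average 98.4% of the members' reads in Tumour, 93.6% in MP and 31.1% in Naive libraries.

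The members' reads were also spread differently. The inverse Simpson index, which counts equally abundant loops that would give the same concentration, was 2.87 ± 1.23 in Tumour, 9.72 ± 2.09 in MP and 59.8 ± 9.80 in Naive libraries without AADTG-ANTGKLT. No library of 1 group reached the range of another. With AADTG-ANTGKLT counted, the first 10 members held 98.4 ± 2.27% of the members' reads in Tumour, 93.6 ± 2.80% in MP and 31.1 ± 2.16% in Naive libraries. In MP libraries 76.8 ± 3.06% was on AADTG-ANTGKLT alone. Members with fewer than 10 reads were on average 11.2 per tumour, 66.6 per MP library and 487 per Naive library.

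The tumours each had their own leading members. In Tumour 3, AVRNTG-ANTGKLT had 6915 reads, or 1.10% of the library (95% Wilson interval 1.08 to 1.13%) and 74.5% of the members' reads. It was listed in no other tumour and in no MP library, and it had 2, 0, 5, 9 and 0 reads in Naive libraries. In Tumour 5, AVSHFT-ANTGKLT had 8022 reads, or 0.850% (0.832 to 0.869%), and no other library listed it. AMPG-ANTGKLT had 2850 reads in Tumour 5, or 0.302% (0.291 to 0.313%), and 8 and 10 reads in Naive 1 and Naive 5. ALGETG-ANTGKLT, with 1275 reads, and ALGVG-ANTGKLT, with 801 reads, were listed in Tumour 3 alone.

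The other tumours had lower leads. In Tumour 2, AMTTG-ANTGKLT had 1052 reads, AADTG-ANTGKLT 974, AATTG-ANTGKLT 938 and AASGG-ANTGKLT 839. In Tumour 4, ALSNTG-ANTGKLT had 627 reads, AANTG-ANTGKLT 383 and AADTG-ANTGKLT 370. In Tumour 1, which held 638 reads of members in all, a loop of 16 residues had 282, AATTG-ANTGKLT 168 and AAGTG-ANTGKLT 60. AATTG-ANTGKLT was the most abundant member that 2 tumours shared, apart from AADTG-ANTGKLT, and it also had 87, 0, 0, 94 and 15 reads in MP libraries and 20, 0, 2, 9 and 3 in Naive libraries. The intervals cover counting error only, since PCR reads are not independent molecules and the labels state no molecular identifiers.

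Of the members listed in tumours, 21.9% (21 of 96) were also listed in MP and 33.3% (32 of 96) in Naive libraries. The corresponding shares over all tumour CDR3s were 25.7% and 35.0%. In tumours alone, 56 of the 96 were listed, or 58.3%, against 59.1% of all tumour CDR3s. All 3 groups listed 13 members.

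Against MP cells, 36 of the 2255 members passed the filter. None was called higher in tumours, where 7.68% of 1666 CDR3s were, and 31 were called lower, or 86.1%, against a background of 66%. None had an unadjusted p under 0.05 for higher in edgeR, and DESeq2 called none higher, against 8.04% of all CDR3s. A member that passed the filter through MP libraries alone had to be lower in tumours. Few members could be called higher, as only 2 of the 96 tumour members were listed in 3 tumours. AVRNTG-ANTGKLT, AVSHFT-ANTGKLT and AMPG-ANTGKLT, each abundant in a single tumour, did not pass the filter and were not tested. The counts in both directions are therefore a description. The median log2 fold change was -8.66 over the members tested and -7.57 over all CDR3s tested. AMERR-ANTGKLT, listed in no tumour, was at least 619-fold lower in tumours, and AVSGR-ANTGKLT, listed in no tumour either, at least 386-fold. AASEA-ANTGKLT had 2 reads in Tumour 2 only. These 3 had passed the filter through MP libraries. AADTG-ANTGKLT, at 0.0363 ± 0.0530% of Tumour and 4.55 ± 1.26% of MP reads, was called lower (log2 fold change -6.97 ± 2.29, edgeR adjusted p = 0.0183). Without MP 1 and MP 5, 9 of 14 members tested were called lower in tumours, with a background of 35% of all CDR3s tested, and AADTG-ANTGKLT was not called (edgeR adjusted p = 0.0579). Without MP 1 alone 19 members were called lower, with a background of 54.6%, and without MP 5 alone 18, with a background of 54.1%.

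The 5 tested members that were not called against MP cells were AAGTG-ANTGKLT, AANTG-ANTGKLT, AATTG-ANTGKLT, AASKA-ANTGKLT and AASRS-ANTGKLT. AASKA-ANTGKLT had 60 reads in Tumour 2 and none in the other tumours, against 203, 53, 418, 35 and 36 in MP libraries. Without Tumour 2, when no tumour listed it, it was called lower in tumours. AASRS-ANTGKLT had 45 and 4 reads in Tumour 1 and Tumour 3, and 52 and 20 in MP 1 and MP 5, and no Naive library listed it.

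Against Naive cells, 118 of the 2255 members passed the filter. None was called higher in tumours, where 3.38% of 4671 CDR3s were, and 112 were called lower, or 94.9%, against a background of 86.7%. Here too, a member that passed the filter through Naive libraries alone had to be lower in tumours. The abundant loops of single tumours, such as AVRNTG-ANTGKLT, AVSHFT-ANTGKLT and AMPG-ANTGKLT, again did not pass the filter and could not be called higher. The counts in both directions are therefore a description. None had an unadjusted p under 0.05 for higher in edgeR, and DESeq2 called none higher, against 3.25% of all CDR3s. The median log2 fold change was -7.78 over the members tested and -7.42 over all CDR3s tested. AASKGTG-ANTGKLT and AASVGTG-ANTGKLT were listed in no tumour, and AASRGTG-ANTGKLT had 63 reads in Tumour 2 only. All 3 had passed the filter through Naive libraries. AADTG-ANTGKLT was among the 6 tested members not called, at 0.0363 ± 0.0530% of Tumour and 0.0238 ± 0.00860% of Naive reads (edgeR adjusted p = 0.726). AATTG-ANTGKLT had a mean ratio of Tumour over Naive of 27.0 that did not pass the threshold with all libraries (edgeR adjusted p = 0.0829). It passed without Tumour 4 (edgeR adjusted p = 0.0470) or without Tumour 5 (edgeR adjusted p = 0.0478).

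The borders of the rule were described last, with no test. Peptides that end in NTGKLT after another residue were not members. Those with T before NTGKLT, the usual TRAJ27 form, held 2.07 ± 1.27% of Tumour, 1.78 ± 0.223% of MP and 2.79 ± 0.250% of Naive reads, with MP libraries at 1.46 to 1.98% and Naive libraries at 2.53 to 3.13%. Those with P held 0.0333 ± 0.0608%, 0.449 ± 0.130% and 0.315 ± 0.0669% in the same groups, and MP and Naive libraries overlapped. Those with S held 0.000645 ± 0.00130%, 0.0319 ± 0.0212% and 0.0214 ± 0.00281%, and overlapped as well. Summed over all lengths, the MP reads with A but no G before NTGKLT, just inside the rule, were unlike these neighbours in lying wholly above the Naive range. In 12-residue loops alone, the A class held 0.810 ± 0.161% of MP and 0.0217 ± 0.00705% of Naive reads. Those with T held 0.838 ± 0.191% and 0.620 ± 0.0525%, with S 0.0298 ± 0.0217% and 0.00223 ± 0.00240%, and with P 0.00352 ± 0.00731% and 0.00544 ± 0.00236%. A higher MP mean at 12 residues was thus not particular to the A class. Under the longer end GANTGKLT, 1993 CDR3s remained and the summed share was 0.533 ± 0.558% in Tumour, 5.08 ± 1.39% in MP and 1.51 ± 0.225% in Naive libraries.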

How the data were processed

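Per the labels, RNA of sorted CD8+ T cells was taken with Trizol and sent to iRepertoire, whose quoted text describes arm-PCR, a multiplex RT-PCR, and a Roche pyrosequencing platform. For the alignment, the CDR3 caller and the error filter, no name is given in these sources. The authors deposited 1 list per library with each CDR3 peptide and its read counts, as whole numbers and not normalized. The sum of a list was taken as depth.

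Shares are reads of a loop over all reads of its library. Calls used edgeR 4.0.16 (limma 3.58.1, R 4.3.3) on the deposited counts of the whole table: quasi-likelihood with robust dispersions, total reads as library size, each pair of groups alone, at least 10 reads in at least 3 libraries, Benjamini-Hochberg adjusted p under 0.05. The code was tested on simulated data. A fold against a group that lists no reads used 3 reads per library as a floor. Other values were computed in python 3.11.15 with pandas 2.3.3 and scipy 1.17.1 and plotted with matplotlib 3.10.9. Sums over members have no test. Alternatives were TMM, DESeq2 1.42.0, other filters, the library number as a block, libraries left out, a longer end and the folding of neighbours.

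The end of TRAJ52 was taken from general knowledge and not checked against a reference sequence; the RefSeq table of GRCm38.p6 gave names and order only. Within groups, each pair of libraries differed by more than counting noise. The labels do not say whether libraries come from single or pooled mice, or whether Naive and MP libraries share mice, so p-values measure the spread between these libraries.

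The members and lists were chosen with earlier results of these data known. The naming rule took the 10 members of highest mean share in MP, 5 in Naive and 10 in Tumour libraries, and the 5 largest called folds each way in MP against Naive. It also took those listed in all libraries, of which there were none, and every member called against tumours. The last came to 136 members and was narrowed, after that count was seen, to counts and examples. The forms with a variable residue x, the near relatives of leads and other loops outside the rule were chosen after their values were seen.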

Additional observations from a re-analysis of the deposited data

Results flagged for a closer look

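In 16 of 46 groups of 5 libraries, the highest or lowest library lay far from the others by Dixon's criterion at the 95% level. Chance alone meets it in about 5% of groups, but that rate is no yardstick here: a loop listed in a single tumour meets the criterion by construction, as 8 of the loops below do. Shares are percent of library reads. In tumours, loops that kept only ANTGKLT held 0.859% in Tumour 5, with the next tumour at 0.0173%, and loops with the whole end held 1.11% in Tumour 3, with the next at 0.124%. Single loops that stood apart were AVSHFT-ANTGKLT at 0.850% and AMPG-ANTGKLT at 0.302% in Tumour 5, and AVRNTG-ANTGKLT at 1.10%, ALGETG-ANTGKLT at 0.203% and ALGVG-ANTGKLT at 0.128% in Tumour 3. In Tumour 2 they were AMTTG-ANTGKLT at 0.135%, AATTG-ANTGKLT at 0.120% and AASGG-ANTGKLT at 0.108%, and in Tumour 4 ALSNTG-ANTGKLT at 0.0767%. Of these 9 loops, only AATTG-ANTGKLT was listed in another tumour, at 0.0225% in Tumour 1.

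In MP libraries, loops with the whole end held 0.268% in MP 3, with the next at 0.103%, and ALVPNTG-ANTGKLT held 0.129% in MP 3, with the next at 0.0133%. AASGFG-ANTGKLT held 0.0752% in MP 4, with the next at 0.0217%. In Naive libraries, loops that kept only ANTGKLT held 0.0802% in Naive 2, with the next at 0.0610%, and AASGTG-ANTGKLT was lowest in Naive 3, at 0.0279% against 0.0337% in the next. What set these libraries apart was not tested.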

How the results depend on the processing

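Of 174 alternatives of 15 group results, 151 left counts within 1.5 times and shares within 1 SD. Of 1169 alternatives of 81 results of single loops, 1105 kept the direction and the side of the threshold, 50 lost a call, 5 gained one and 9 turned the direction. In MP against Naive, 14 of 50 tested members were called higher and 27 lower with at least 50 reads (25.1% and 48.6% of all CDR3s tested). With no filter (at least 1 read in at least 2 libraries) they were 49 and 433 of 720 (7.97% and 51.7%), without MP 1 and MP 5 12 and 103 of 128 (7.31% and 70.6%), and by the end GANTGKLT 13 of 135 were higher. With 1 library left out, 15 to 22 were higher (9.68 to 12.7% of all) and 78 to 97 lower (42.5 to 57.3% of all). Members called lower in Tumour against MP were 16 of 19 with at least 50 reads (60.8% of all), 92 of 117 with no filter (66.9%), 9 of 14 without MP 1 and MP 5 (35%) and 18 to 32 with 1 library left out (54.1 to 78.9%). Against Naive they were 32 of 34 with at least 50 reads (79.7%) and 598 of 628 with no filter (90.3%). Members called higher in Tumour against Naive were 2 of 628 with no filter (1.61% of all) and 0 to 1 with 1 library left out (AATTG-ANTGKLT, without Tumour 4 or Tumour 5). The causes were not tested, except that filters change how many members are tested.

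With the library number as a replicate block, 20 members were called higher and 96 lower in MP against Naive, where 10.3% and 51.2% of all CDR3s were, and 6 lower in Tumour against MP, where 15.9% of all CDR3s were. Whether the numbers pair MP and Naive libraries is not stated in the labels and was not settled here. Deviations of same-numbered MP and Naive libraries correlated weakly, at 0.0125 to 0.0470. Tumour libraries came from mice of another age and genotype, so the block has no known meaning there. In 4 of 5 numbers the best match of an MP library was the Naive library of its own number, as a hint from the data. Under the block, the log2 fold change turned for AASAYG-ANTGKLT in MP against Naive (-0.38) and for AATTG-ANTGKLT in Tumour against MP (-1.38). It also turned in Tumour against Naive for AADTG-ANTGKLT (-2.21), AASGG-ANTGKLT (-5.14) and AATTG-ANTGKLT (-1.83). With 1 library left out, AASAYG-ANTGKLT ranged from -0.43 (without MP 4) to 0.67. The lower ends of the next ranges are all without Tumour 2: -0.015 to 3.24 for AATTG-ANTGKLT in Tumour against MP, and, in Tumour against Naive, -0.75 to 0.93 for AADTG-ANTGKLT and -6.83 to 3.69 for AASGG-ANTGKLT, which no tumour then listed and which was then called lower.

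By the end GANTGKLT, the summed share without the lead was 0.529% in MP, and the share of distinct CDR3s was 1.50% in MP and 2.43% in Naive libraries. The share of distinct CDR3s was 1.53% in MP and 2.77% in Naive libraries with neighbours folded, and 2.41% in Naive libraries without CDR3s of fewer than 10 reads. Depth and the unstated number of sorted cells limit which rare loops are listed.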
